A study of Mus musculus with 24 samples.

Results

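In cultured mouse vascular smooth muscle cells (VSMCs), 8158 distal regions carried acetylation of histone H3 at lysine 27 (H3K27ac) in all 5 libraries of a cholesterol loading experiment. They were 15.4% of the 53053 regions called in the control 24 h library. A region of that list was kept when it was under 5000 bp long, overlapped a region of each of the other 4 lists by at least 1 bp, and had its midpoint more than 3000 bp from every gene start of the RNA table. Of the 39307 regions that were distal and under 5000 bp, 20.8% were in all lists. The regions were thus chosen by the H3K27ac calls of the same 5 libraries and by length and distance, so presence, length, distance and tag number are given below as descriptions with no test. The 24 regions just inside the length limit (4952 to 4994 bp) held a median of 256 normalised tags (tags per 10000000 mapped), against 279 in the 31 regions just outside it (5002 to 5048 bp). The 12 regions just inside the distance limit (3001 to 3050 bp) held a median of 82.0 normalised tags, against 47.1 in the 13 just outside it (2952 to 2998 bp).

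The cells were primary VSMCs from the aorta of C57BL/6 mice. Loading lasted 24 or 48 h and used cholesterol carried by methyl-beta-cyclodextrin (Chol:MβCD, 20 µg/mL) with 0.2% BSA. Control cells had BSA alone for 0, 24 or 48 h. By the study's methods the cells were grown in medium with serum. The comparison of control 24 h with 0 h may thus include the change from serum to BSA medium, whose part was not tested. The control medium held no cyclodextrin, so effects of cholesterol and of its carrier cannot be told apart. H3K27ac was measured in 1 library per condition, each with its own input, and RNA in 14 libraries, 3 per group except 2 at control 48 h. The study calls its RNA replicates biological, but the labels do not say whether they came from separate animals, so the p-values below measure the spread between these libraries.

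Acetylation of H3K27 marks the nucleosomes beside active promoters and enhancers. Enhancers lie away from gene starts, are bound by several sequence-specific factors at once, and raise transcription of genes that are often, but not always, the nearest ones. In smooth muscle, serum response factor (SRF) with its myocardin-related coactivators drives contractile genes through the CArG box, TEAD factors carry the signal of the coactivators YAP and TAZ, and AP-1, a dimer of Fos and Jun proteins, answers growth and stress signals. KLF factors bind GC-rich sequence and several repress the contractile program, RUNX factors act in cell fate, and ATF4 with C/EBP proteins binds a composite element in amino acid and unfolded protein stress. Cholesterol that enters a cell silences the SREBP-driven genes of its synthesis, and its oxidised forms activate the nuclear receptor LXR.

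Sequence was read from GRCm38.p6 (the mm10 assembly) in the central 200 bp of each region, where HOMER had centred it on a dip in tags taken as nucleosome free. A motif was searched on both strands as AP-1 TGANTCA, TEAD GGAATG, KLF GGGNGNGGC, RUNX TGTGGT, ATF4-C/EBP TGATGCAA and the CArG box of SRF. The windows printed here are from regions nearest to contractile genes, factor genes and genes whose RNA moved with cholesterol, and were picked after their motifs and values had been seen. They are given on the plus strand, and capitals mark motif matches.

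The first set lies nearest to contractile genes and to Akap5, which is not in the contractile list. The Lmod1 window (chr1:135347873-135348072) is in an intron of Lmod1, which encodes the actin nucleator leiomodin, and holds an AP-1 motif and a CArG box. The Smtn window (chr11:3575402-3575601), intergenic and 36210 bp from the start of the smoothelin gene, holds a TEAD motif and a CArG box. The Acta2 window (chr19:34269316-34269515), 14043 bp from the start of the gene of smooth muscle alpha-actin, holds a RUNX motif. The Akap5 window (chr12:76308105-76308304), in an intron of Mthfd1 and 16686 bp from the start of the kinase anchor gene Akap5, holds an AP-1 motif and a CArG box.
Lmod1: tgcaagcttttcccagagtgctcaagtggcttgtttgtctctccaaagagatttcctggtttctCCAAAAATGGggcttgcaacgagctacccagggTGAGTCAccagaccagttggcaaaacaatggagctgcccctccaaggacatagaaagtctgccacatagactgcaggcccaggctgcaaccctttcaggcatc
Smtn: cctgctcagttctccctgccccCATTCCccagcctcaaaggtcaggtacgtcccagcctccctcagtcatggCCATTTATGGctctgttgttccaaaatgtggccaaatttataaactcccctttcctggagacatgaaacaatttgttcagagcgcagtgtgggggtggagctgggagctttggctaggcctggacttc
Acta2: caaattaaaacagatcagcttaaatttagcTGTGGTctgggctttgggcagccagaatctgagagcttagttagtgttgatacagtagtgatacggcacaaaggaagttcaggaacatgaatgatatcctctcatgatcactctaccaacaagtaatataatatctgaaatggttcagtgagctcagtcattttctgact
Akap5: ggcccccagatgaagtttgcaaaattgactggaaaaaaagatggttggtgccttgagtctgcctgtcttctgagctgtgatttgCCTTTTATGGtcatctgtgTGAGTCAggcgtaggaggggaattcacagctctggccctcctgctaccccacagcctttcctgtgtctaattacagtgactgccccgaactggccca

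The second set lies nearest to a TEAD factor, a classic YAP target and the gap junction gene Gja4. The Tead1 window (chr7:112663391-112663590) holds TEAD and KLF motifs, the Ctgf window (chr10:24458719-24458918), 136623 bp from the gene start, an AP-1 motif, and the Gja4 window (chr4:127289313-127289512), 24626 bp from the gene start, a TEAD motif.
Tead1: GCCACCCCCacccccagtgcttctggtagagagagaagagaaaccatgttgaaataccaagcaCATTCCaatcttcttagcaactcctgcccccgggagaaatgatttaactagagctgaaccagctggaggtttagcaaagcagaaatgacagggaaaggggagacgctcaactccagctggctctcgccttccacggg
Ctgf: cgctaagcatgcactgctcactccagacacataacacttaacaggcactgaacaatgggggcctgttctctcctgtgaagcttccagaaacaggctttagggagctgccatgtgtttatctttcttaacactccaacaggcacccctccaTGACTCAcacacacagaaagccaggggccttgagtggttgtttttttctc
Gja4: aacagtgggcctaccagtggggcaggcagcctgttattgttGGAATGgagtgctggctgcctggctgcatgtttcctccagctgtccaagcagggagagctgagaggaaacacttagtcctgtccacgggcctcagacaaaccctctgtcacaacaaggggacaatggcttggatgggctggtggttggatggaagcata

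The third set lies nearest to genes of sterol export and the stress response. The Abca1 window (chr4:53196359-53196558) is intergenic, 36564 bp from the start of the cholesterol exporter gene, and holds a RUNX motif. The Atf3 window (chr1:191224327-191224526), 41094 bp from the start of that stress-induced factor gene, holds AP-1 and KLF motifs. The Nfil3 window (chr13:53033684-53033883) holds 2 TEAD motifs, and the Derl3 window (chr10:75898937-75899136), in an intron of the neighbouring gene Smarcb1, holds AP-1 and RUNX motifs.
Abca1: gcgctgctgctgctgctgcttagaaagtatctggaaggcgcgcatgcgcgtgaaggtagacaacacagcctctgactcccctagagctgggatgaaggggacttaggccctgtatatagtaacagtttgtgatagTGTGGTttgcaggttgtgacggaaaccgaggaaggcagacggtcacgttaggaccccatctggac
Atf3: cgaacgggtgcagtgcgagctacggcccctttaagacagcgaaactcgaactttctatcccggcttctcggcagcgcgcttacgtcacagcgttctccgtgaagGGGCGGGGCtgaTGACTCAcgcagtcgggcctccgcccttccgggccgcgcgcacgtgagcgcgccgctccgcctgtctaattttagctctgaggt
Nfil3: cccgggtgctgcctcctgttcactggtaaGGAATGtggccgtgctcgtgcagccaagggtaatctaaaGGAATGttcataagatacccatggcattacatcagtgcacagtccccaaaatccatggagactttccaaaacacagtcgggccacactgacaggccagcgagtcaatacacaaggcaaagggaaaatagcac
Derl3: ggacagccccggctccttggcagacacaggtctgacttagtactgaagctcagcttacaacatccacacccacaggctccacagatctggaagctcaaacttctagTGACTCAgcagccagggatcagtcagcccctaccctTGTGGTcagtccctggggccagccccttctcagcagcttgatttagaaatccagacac

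Over all 8158 regions, a TEAD motif stood in 1592 central windows (19.5%, 95% exact binomial interval 18.7 to 20.4) and an AP-1 motif in 1479 (18.1%, 17.3 to 19.0). In windows of the same length at the 7650 regions within 3000 bp of a gene start that were in all lists and had sequence, these shares were 7.97% and 3.99%. At the edges of the same distal regions they were 10.7% and 6.17%, and in the distal regions that were not in all lists 15.6% and 12.6%. The KLF motif stood in 8.51% of the common distal windows, against 4% at the edges and 4.73% in the other distal regions. Against start sites it ran the other way, at 32.7% of windows whose mean GC content was 62.7% against 47.5%. The regions of 5000 bp or more in all lists also held it more often (11.2%, at a mean GC content of 49.0%). RUNX motifs stood in 14.3% of the windows, against 15.8% at the edges of the regions, so their central share was not above that of the flanks. The CArG box stood in 172 windows (2.11%, against 0.883% at the edges and 0.915% at start sites) and the ATF4-C/EBP element in 69 (0.846%, against 0.515% and 0.340%). In the other distal regions these shares were 1.60% and 0.604%, and in the regions of 5000 bp or more in all lists 2.02% and 0.403%. At least 1 of the 6 motifs stood in 4044 windows (49.6%), AP-1 and TEAD together in 287 (3.52%), and motifs overlapped each other in 40 (0.490%). The shares are descriptions of short letter strings, differ with base composition, and do not show that a factor was bound.

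By position, AP-1 motifs were densest at the centre of the regions, with 1.25 and 1.33 motifs per kb in the 50-bp bins on its left and right and 0.353 and 0.355 in the outermost bins, centred 975 bp away. TEAD motifs reached 1.40 and 1.29 per kb at the centre against 0.655 and 0.647 in the outermost bins. RUNX motifs were slightly sparser at the centre (0.807 and 0.770 per kb) than in the outermost bins (0.912 and 0.878). KLF motifs peaked at 0.583 and 0.618 per kb at the centre of the distal regions, and at 3.03 and 3.07 per kb at start-site regions.

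**Figure D1:**
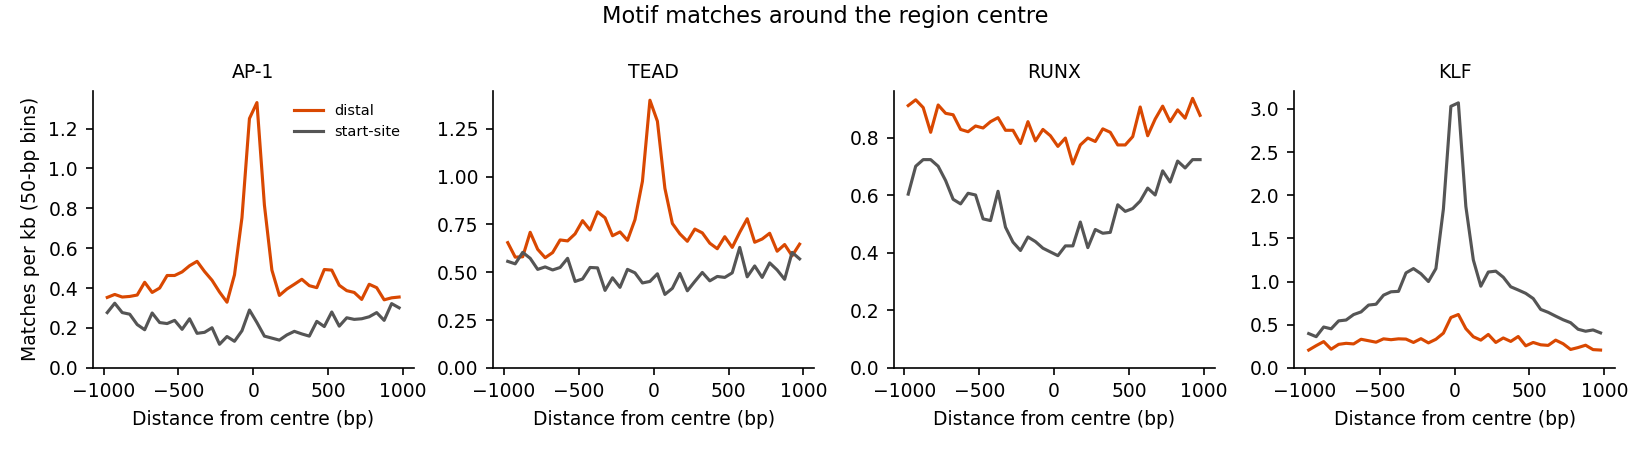
Motifs per kb in 50-bp bins (y axis) by distance from the region centre in bp (x axis), for the AP-1, TEAD, RUNX and KLF motifs in the common distal regions and in the start-site regions present in all lists. In the distal regions AP-1 and TEAD rise to a central peak of 1.25 to 1.40 per kb and RUNX shows no such peak, while KLF peaks far higher at start sites.

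The regions stood a median of 30802 bp from the nearest gene start (3001 to 1676684 bp). Of them, 1495 (18.3%) lay between 3 and 10 kb, 3900 (47.8%) between 10 and 50 kb, 1507 (18.5%) between 50 and 100 kb and 1256 (15.4%) beyond 100 kb. In the GENCODE annotation of GRCm38, 4778 midpoints (58.6%) were in an intron, 3000 (36.8%) between genes and 380 (4.66%) in an exon. Of the intronic ones, 3073 (64.3%) were inside the gene whose start was nearest. The RNA table holds RefSeq starts only. By GENCODE, which lists more transcripts, 1596 regions (19.6%) were within 3000 bp of some transcript start. The main Atf3 region was 27 bp from the start of D730003I15Rik, the Fdft1 region 111 bp from another start of Fdft1, and the Dhcr7 region 12 bp from another start of Dhcr7.

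The libraries differed in depth, which touches every tag value. After removal of tags at the same position, the control 0 h library kept 3452000 tags (22.5% of its total) and the other 4 kept 11776000 to 20674000 (59.3% to 84.4%). Tags were normalised to all mapped tags, duplicates included, and the part of depth in the 0 h values was not tested. The median common distal region held 28.7 normalised tags at control 0 h, 94.3 at control 24 h, 97.4 at control 48 h, 106 at cholesterol 24 h and 88.9 at cholesterol 48 h. Its median length was 700 bp at control 0 h and 1892 to 2120 bp in the other 4 lists. Divided by length, the medians were 37.7 tags per kb at 0 h and 44.4, 46.0, 48.4 and 46.1 in the other libraries in the same order. Over the 8158 regions, which share a library on each axis, Spearman's correlation of tags per kb was 0.77 to 0.81 among the 24 and 48 h libraries and 0.10 to 0.11 with the 0 h library. Start-site regions in all lists were as long as the distal ones (median 2062 bp) and held more tags at control 24 h (median 128 normalised tags, 60.8 per kb). Distal regions not in all lists were shorter and weaker there (median 662 bp and 15.8 tags).

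**Figure D2:**
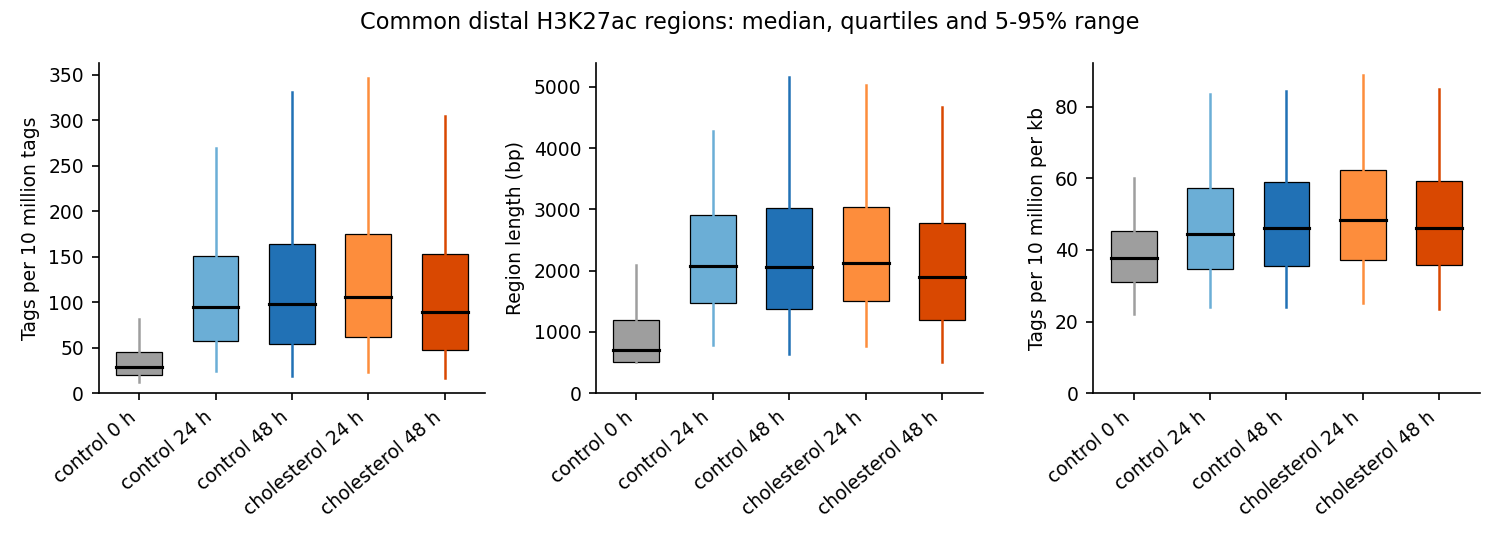
Normalised tags, region length in bp and tags per kb (3 panels) of the common distal regions in each of the 5 H3K27ac libraries, 1 library per condition, with the median as a line, quartiles as a box and the 5th to 95th percentiles as a thin line over 8158 regions. The median lies between 88.9 and 106 tags in the 24 and 48 h libraries and at 28.7 in the control 0 h library, and the gap narrows once tags are divided by region length.

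With cholesterol, H3K27ac at the common distal regions moved little. The median log2 ratio of tags per kb to control was 0.09 at 24 h, with 5th and 95th percentiles of -0.42 and 0.63, and 0.01 at 48 h (-0.59 and 0.60). The median over all regions in all lists was 0.11 at 24 h and 0.00 at 48 h, so relative to that common shift the distal regions stood at -0.02 and 0.00. Within 1.5-fold of the common level lay 7533 regions (92.3%) at 24 h and 7319 (89.7%) at 48 h, against 94.2% and 92.0% of all regions in all lists and 95.7% and 93.4% of the start-site ones. A 2-fold higher value was seen at 24 h in 70 regions (0.858%, against 1.67% of all 35264 regions with a partner in both lists) and a 2-fold lower value in 25 (0.306%, against 0.454%). At 48 h the counts were 63 (0.772%, against 0.790% of 26848) and 66 (0.809%, against 0.752%). Among the 17546 regions in all lists the shares were 0.616% higher and 0.160% lower at 24 h, and 0.496% and 0.519% at 48 h. Distal regions past 2-fold either way, relative to the common shift, were mostly those with few tags. By quartile of control 24 h tags, from fewest to most, they numbered 67, 11, 5 and 4 at 24 h. At 48 h they numbered 71, 31, 17 and 10. The SD of the log2 ratio went from 0.44 in the first quartile to 0.26 in the last at 24 h, and from 0.45 to 0.30 at 48 h. The sets compared were not matched for tags. In control medium from 0 to 24 h the spread was wider: the median log2 ratio was 0.27, 1110 regions (13.6%, against 16.0% of 24319) were 2-fold or more higher and 238 (2.92%, against 6.39%) lower. Relative to the common median of 0.50 in that comparison the split turned, with 228 higher (2.79%, against 3.77% of the 24319) and 976 lower (12%, against 18.3%). Scaled to the tags kept instead of all mapped tags, an alternative chosen after seeing the data that shifts all regions of a library together, the medians became -0.41 at 24 h, 0.09 at 48 h and -1.13 for control 24 h to 0 h, so the direction at 24 h and in control medium depended on the scaling.

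Few regions passed 1.5-fold at both times. Relative to the common level, 302 regions (3.70%, against 4.59% of all with a partner in both lists) were 1.5-fold or more higher at 24 h and 421 (5.16%, against 5.40%) at 48 h, with 32 (0.392%) at both. For lower values the counts were 323 (3.96%, against 6.59%), 418 (5.12%, against 5.06%) and 28 (0.343%). Over all regions in all lists the shares were smaller, at 2.92%, 4.06% and 0.268% higher and 2.86%, 3.96% and 0.199% lower. Another 23 distal regions (0.282%, against 0.188% of all regions in all lists) were higher at 24 h and lower at 48 h. The reverse held for 19 (0.233%, against 0.160%). Spearman's correlation of the 24 h and 48 h ratios over the 8158 regions was 0.04. The SD of the log2 ratio over regions was 0.34 at 24 h and 0.37 at 48 h, where counting error alone had a median SE of 0.13 and 0.16. With 1 library per condition, the spread between cultures is not known. Region lengths also differed between libraries. Length divides the tags, which by itself pulls the correlation of the tag ratio with the length ratio below 0. That correlation was -0.35 at 24 h and -0.32 at 48 h, and -0.55 and -0.53 over the start-site regions in all lists. The part of region calling in these ratios was not tested.

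**Figure D3:**
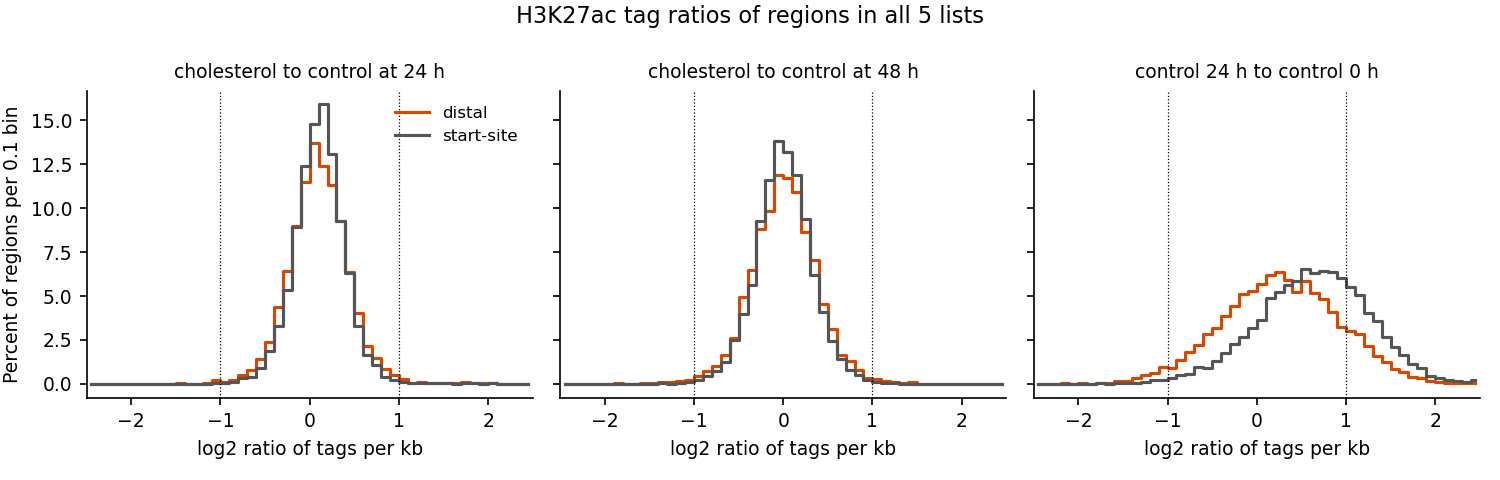
Percent of regions per bin of 0.1 (y axis) by log2 ratio of tags per kb (x axis), for the 8158 common distal regions and the start-site regions in all lists, with dotted lines at 2-fold, for cholesterol to control at 24 h, cholesterol to control at 48 h and control 24 h to control 0 h. For the distal regions the cholesterol distributions are narrow with medians of 0.09 and 0.01, and the distribution for control 24 h to 0 h is wider with a median of 0.27.

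The regions with the most tags were those joined to a far wider region in another list. All 10 of the regions with the highest mean tags overlapped, in at least 1 list, a region of 5000 bp or more, the widest of these partners measuring 10198 to 36410 bp. A region in an intron of Lncpint nearest to Mir29b-1 (chr6:31103073-31104925) held 13.0 normalised tags at control 0 h, 83.7 at control 24 h, 2913 at control 48 h, 2853 at cholesterol 24 h and 861 at cholesterol 48 h. These values belong to regions of different width, so the step from 83.7 to 2913 is not a gain on the same bases. Its log2 ratio per kb was 0.79 (95% counting interval 0.59 to 1.00) at 24 h and -0.53 (-0.61 to -0.44) at 48 h. The others were nearest to Mir29b-1 again, Lincppara, BC022687, Trim2, Ephx1, Myl12b, Irf2bpl, Bcar1 and Kmt2e. Of all common distal regions, 790 (9.68%) had a partner of 5000 bp or more at 24 or 48 h.

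The largest rise with cholesterol at both times was in an intron of Nfix, 34333 bp from the start of Lyl1 (chr8:84735312-84736268). Nfix encodes a nuclear factor I transcription factor. This region held 8.47 normalised tags at control 0 h, 17.1 at control 24 h, 47.6 at control 48 h, 1169.7 at cholesterol 24 h and 1119 at cholesterol 48 h. The control regions were 500 to 1996 bp long and the cholesterol regions 12390 and 11962 bp, so in both cholesterol libraries it had merged into a wide domain. Per kb the log2 ratio was 2.40 (95% counting interval 1.96 to 2.88) at 24 h and 1.97 (1.66 to 2.29) at 48 h. A region inside both Pcdh7, a protocadherin gene, and Gm42635 (chr5:57724427-57725059) had its midpoint in a GENCODE exon, 350 bp from the start of Gm42635. It followed the same course, with 43.0, 14.6 and 34.8 tags in the controls and 676 and 601 with cholesterol. The other rises were nearest to Arid1b, a chromatin remodelling subunit, G630071F17Rik and Myo10, an unconventional myosin. At Arid1b (chr17:4997812-4999856) the tags were 49.6 at control 24 h and 28.2 at cholesterol 24 h, and 18.2 and 514 at 48 h, so the values before division by length moved in opposite directions at the 2 times.

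The largest fall was 16516 bp from the start of Btg2, an antiproliferative gene (chr1:134060852-134064426). The region held 42.4 normalised tags at control 0 h, 177 at control 24 h, 95.2 at control 48 h, 74.7 at cholesterol 24 h and 32.1 at cholesterol 48 h. Both cholesterol values were below both 24 and 48 h control values. The log2 ratio per kb was -1.01 (-1.27 to -0.76) at 24 h and -1.73 (-2.20 to -1.28) at 48 h. The next, 13024 bp from the start of Ptrf (chr11:100983262-100984020), the gene of the caveolar coat protein cavin, held 44.3 and 59.2 tags at 24 h in control and cholesterol and 44.9 and 7.26 at 48 h. The remaining falls were nearest to Kcns1, Fer and Mir7009, the last inside an intron of Anxa5. In 7 of these 10 regions the called lengths differed 2-fold or more in at least 1 comparison, and the 10 were chosen for their ratios, so no test is given.

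Tag ratios differed little with motif content. Relative to the common level, regions with an AP-1 motif had a median log2 ratio of 0.00 at 24 h and 0.01 at 48 h, and regions without it -0.02 and 0.00. For the 69 regions with an ATF4-C/EBP element the medians were 0.10 at 24 h and -0.02 at 48 h. The region of Dusp8, whose RNA is given below, held that element.

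The common distal regions were nearest to 4708 genes. Of these 2968 (63.0%) had 1 such region, 1507 had 2 to 4, 223 had 5 to 9 and 10 had 10 or more. Among the last were Foxp1, a forkhead repressor (14 regions), 1700016G22Rik (13), 2010111I01Rik and Ptpn1, the tyrosine phosphatase PTP1B (12 each), Pabpc2 and Rad51b, a recombination gene (11 each), and Antxr1, Gmds and Tbl1xr1 (10 each). The strongest Foxp1 region (chr6:99436676-99441578) held 47.6 normalised tags at control 0 h, 263 at control 24 h, 334 at control 48 h, 318 at cholesterol 24 h and 236 at cholesterol 48 h. Cholesterol and control differed there by log2 0.08 (-0.07 to 0.24) at 24 h and -0.18 (-0.37 to 0.00) at 48 h per kb. Of the 8 of these 10 genes that could be tested, Ptpn1 alone passed, and only at 48 h, by -0.20 ± 0.0508 (SE) on the scale described next (limma, adjusted p = 0.0135).

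RNA was given as RPKM, reads normalised to gene body length and library size, rescaled between libraries, and tested with limma on log2(RPKM + 1) with Benjamini-Hochberg adjustment over 12648 genes. Adding 1 draws every log2 fold change toward 0, and the more so the lower the RPKM of the gene. Fold changes of genes at a few RPKM are thus understated too, and those below about 1 RPKM the most. Of the 4708 nearest genes, 3371 (71.6%) passed the filter on low values, against 51.7% of all named genes. Their median RPKM was 1.61, against 1.91 over all tested genes. A call is an adjusted p under 0.05.

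At 24 h of cholesterol, 96 nearest genes were higher (2.85%, against 2.48% of all genes tested) and 159 lower (4.72%, against 2.96%). At 48 h, 406 were higher (12%, against 11.9%) and 566 lower (16.8%, against 12.9%). Lower genes thus had the larger margin over the background, but at 48 h this rested on 1 library: without cholesterol 48 h replicate 1, 15.7% of nearest genes were higher (against 13.2% of all) and 15.3% lower (against 13.4%). With array weights the shares at 48 h were 15.7% higher (against 13.6%) and 17.5% lower (against 14.4%). In control medium from 0 to 24 h, 188 were higher (5.58%, against 4.45%) and 179 lower (5.31%, against 3.81%). That comparison and the one at 24 h share the control 24 h libraries. With RPKM used as deposited, without rescaling, the control counts became 249 higher and 120 lower. The median log2 fold change of the nearest genes at 24 h was -0.01, against 0.00 for all genes. Leaving out any 1 of the 6 libraries compared at 24 h took the counts there to between 41 and 50 higher and between 75 and 102 lower. Leaving out cholesterol 48 h replicate 1, which enters only the shared estimate of spread, gave 149 higher. At 48 h the lowest count of lower genes was 353, without control 48 h replicate 3, and in the control comparison the highest was 468, without control 0 h replicate 3, and the lowest 74, without control 24 h replicate 2.

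The number of regions did not raise the share of genes called higher. At 48 h, 11.6% of tested genes with 1 region were higher and 16.0% lower. With 2 to 4 regions these shares were 13.0% and 17.5%, and with 5 to 9 regions 11.2% and 21.9%. Tags and RNA moved together little: the correlation of a gene's mean tag ratio with its RNA fold change over 3371 genes was 0.04 at 24 h and 0.06 at 48 h (Spearman, genes not being independent). Among 300 tested genes with a region 1.5-fold or more lower at 48 h, 64 (21.3%) were lower in RNA and 28 (9.33%) higher. Among 286 with a region 1.5-fold or more higher, 44 (15.4%) were lower and 43 (15%) higher. Over all 3371 nearest genes tested, 16.8% were lower and 12% higher at 48 h.

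**Figure D4:**
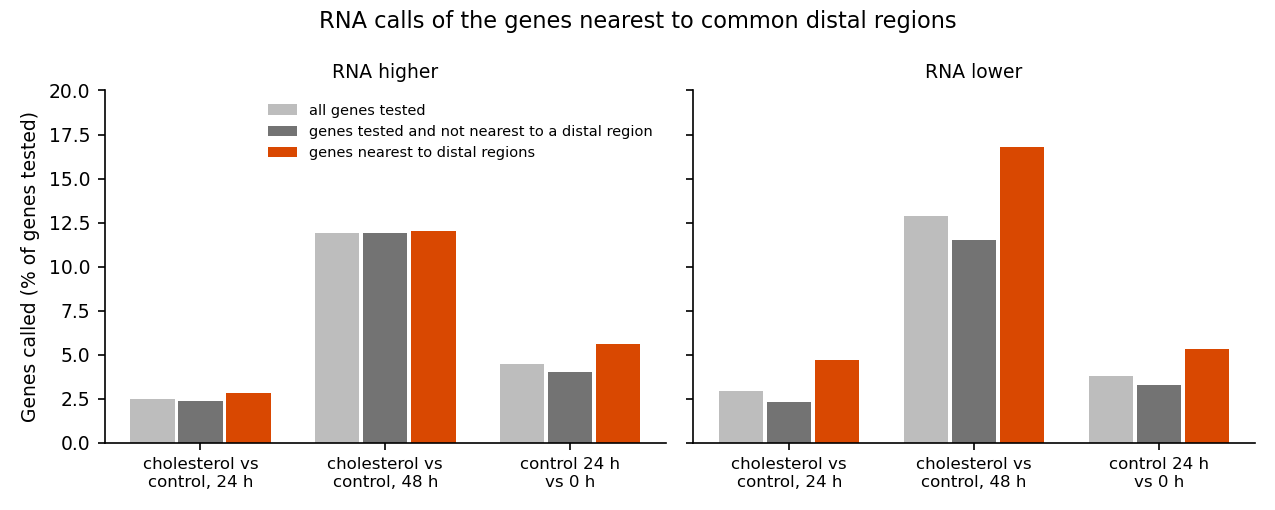
Percent of tested genes called higher or lower in RNA (y axis) in the 3 comparisons, for all tested genes, those not nearest to a common distal region and those nearest to one. Lower calls are more frequent among nearest genes than among all genes at 24 h (4.72% against 2.96%) and 48 h of cholesterol (16.8% against 12.9%), and higher calls differ by less at those times with all 14 libraries fitted.

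Sterol genes near the regions moved in both directions by role. Of all genes tested, 2.48% were higher and 2.96% lower at 24 h, and 11.9% and 12.9% at 48 h. Genes of cholesterol synthesis were the clearest group. Of the 22 genes listed, 7 were nearest to a common distal region (among them Cyp51, Dhcr7, Fdft1, Lbr, Msmo1 and Sc5d, 1 region each), and all 7 fell at 24 h and at 48 h, with median log2 fold changes of -0.81 and -0.64. The call of Lbr at 24 h was lost without any 1 of the libraries compared there, and that of Sc5d at 48 h without either control 48 h library. Cyp51, the lanosterol demethylase, was at 9.04, 9.06 and 8.60 RPKM in control 24 h cells and 3.80, 3.75 and 3.68 with cholesterol. At 48 h it was at 10.6 and 10.2 in control and 6.62, 5.89 and 6.17 with cholesterol. The groups did not overlap at either time, and the log2 fold change was -1.06 ± 0.0662 (SE, limma, adjusted p = 1.69e-06) at 24 h and -0.66 ± 0.0741 (adjusted p = 6.22e-05) at 48 h. Its distal region, in an intron of Akap9 (chr5:4023893-4024523), held 18.7 normalised tags at control 24 h and 39.2 at cholesterol 24 h, and 23.0 and 40.5 at 48 h. Per kb the log2 ratio was 0.49 (-0.03 to 1.03) and 0.00 (-0.57 to 0.59).

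Msmo1, the sterol methyl oxidase, was at 10.8, 10.7 and 10.6 RPKM in control 24 h cells and 4, 4.54 and 4.55 with cholesterol (log2 fold change -1.12 ± 0.0873, limma, adjusted p = 1.08e-05). At 48 h it was at 12.9 and 12.2 in control and 7.82, 7.10 and 8.11 with cholesterol. Its intronic region (chr8:64725170-64728544) held 116 tags at control 24 h and 112 at cholesterol 24 h, and 55.6 and 119.8 at 48 h. Per kb, the log2 ratio was 0.86 (0.62 to 1.11) at 24 h and -0.44 (-0.79 to -0.09) at 48 h, so it went against the undivided tags at both times. Dhcr7, the last reductase of the pathway, fell from 2.59 ± 0.0986 to 1.04 ± 0.0492 RPKM (SD, n = 3 each) at 24 h (limma, adjusted p = 8.35e-07). Fdft1, squalene synthase, fell at 24 h (2.61 ± 0.0706 RPKM in control, 1.10 ± 0.0837 with cholesterol, SD, n = 3 each, adjusted p = 2.98e-05 by limma) and at 48 h from 2.81 ± 0.121 (n = 2) to 1.45 ± 0.117 (n = 3, limma adjusted p = 1.05e-04).

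Of 17 listed genes of sterol uptake and LXR response, 7 were nearest to a region and 6 were tested: 2 rose and 2 fell at 24 h, and 4 rose and none fell at 48 h. Abca1, the cholesterol exporter and an LXR target, was at 0.540, 0.565 and 0.549 RPKM in control 24 h cells and 4.34, 4.22 and 4.18 with cholesterol. At 48 h it was at 0.559 and 0.643 in control and 3.79, 6.02 and 5.76 with cholesterol. The means differed 7.70-fold at 24 h and 8.63-fold at 48 h, and every cholesterol library was above every control library (log2 fold changes 1.76 ± 0.109 and 1.93 ± 0.121, limma, adjusted p = 1.69e-06 and 6.95e-07). Its one distal region, whose central sequence is printed above, held 91.2 normalised tags at control 0 h, 85.3 at control 24 h, 68.5 at control 48 h, 129 at cholesterol 24 h and 117 at cholesterol 48 h. Both cholesterol values were the highest of the 5 before division by length. Per kb, cholesterol 24 h was highest (94.4), but control 0 h (84.4) was above cholesterol 48 h (81.1). Control 24 h and 48 h stood at 71.3 and 75.6 per kb. The log2 ratio per kb was 0.41 (95% counting interval 0.15 to 0.66) at 24 h and 0.10 (-0.23 to 0.44) at 48 h.

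Srebf1, which encodes SREBP-1 and is also an LXR target, rose from 9.39, 9.57 and 9.27 RPKM to 16.6, 18.0 and 17.2 at 24 h (log2 fold change 0.81 ± 0.0587, limma, adjusted p = 5.53e-06). At 48 h it rose from 10.5 and 10.7 to 19.6, 21.5 and 21.8. Its nearer region (chr11:60221607-60226015), 1230 bp from a GENCODE start of Srebf1, held 148 tags at control 24 h, 106 at cholesterol 24 h, 316 at control 48 h and 354 at cholesterol 48 h. The log2 ratio per kb was 0.75 (0.52 to 0.99) at 24 h, where the undivided tags were lower, and 0.17 (0.01 to 0.34) at 48 h.

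Genes of the unfolded protein response and its ATF4 branch rose where they moved. Of 22 listed, 10 were nearest to a region, with 4 higher and none lower at 24 h and 6 higher and none lower at 48 h. Over all genes tested, 2.48% were higher at 24 h and 11.9% at 48 h. Atf3, a factor induced by ATF4, was at 0.576, 0.512 and 0.562 RPKM in control 24 h cells and 2.33, 2.49 and 2.37 with cholesterol, and at 0.669 and 0.539 against 4.63, 4.12 and 3.53 at 48 h. The means differed 4.36-fold and 6.78-fold (limma, adjusted p = 1.20e-06 and 1.02e-07). Its stronger region (chr1:191223568-191225286) held 159.7 tags at control 24 h and 151 at cholesterol 24 h, and 137 and 126 at 48 h, a log2 ratio per kb of 0.00 (-0.21 to 0.21) and -0.26 (-0.53 to 0.01). The RNA thus rose several fold with no gain of tags at that region.

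Nfil3, a basic leucine zipper repressor, rose from 0.951 ± 0.0752 to 2.57 ± 0.132 RPKM (SD, n = 3 each) at 24 h and from 0.678 ± 0.120 (n = 2) to 4.34 ± 0.574 (n = 3) at 48 h (limma, adjusted p = 3.22e-05 and 2.25e-07). Its region (chr13:53031850-53035718) held 230.4 and 276 tags at 24 h and 286 in both libraries at 48 h, or per kb a log2 ratio of 0.22 (0.06 to 0.39) and -0.24 (-0.42 to -0.06). Derl3, a component of the degradation machinery of the endoplasmic reticulum, showed a late response. It was at 0.880, 0.571 and 1.28 RPKM in control 24 h cells and 0.588, 0.479 and 0.358 with cholesterol (limma, adjusted p = 0.372), and at 48 h at 1.01 and 0.106 against 8.44, 8.73 and 7.98 (adjusted p = 5.30e-06). Its region (chr10:75897485-75900589) held 256, 243, 224 and 214 tags at control 24 h, cholesterol 24 h, control 48 h and cholesterol 48 h. These tags differed by log2 -0.14 (-0.30 to 0.03) at 24 h and -0.15 (-0.36 to 0.06) at 48 h per kb. Dnajb9, a chaperone cofactor of the same compartment, rose at 48 h from 7.74 and 9.92 to 19.6, 20.6 and 21.5 RPKM (limma, adjusted p = 3.78e-06). Its strongest region stood 1318441 bp from its start. The calls of Dnajb9 and Cebpg at 24 h were lost without any 1 of the libraries compared there.

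Of the 20 contractile genes listed, 10 were nearest to 22 regions: 3 were lower and none higher at 24 h, and 3 lower and 1 higher at 48 h. Over all genes tested, 2.96% were lower and 2.48% higher at 24 h, and 12.9% and 11.9% at 48 h. Smtn was at 19.7, 20.8 and 20.1 RPKM in control 24 h cells and 16.3, 16.9 and 16.6 with cholesterol (limma, adjusted p = 0.0579), and fell at 48 h from 23.0 and 22.2 to 15, 16.2 and 16.1 (adjusted p = 9.36e-04). Its strongest region (chr11:3585475-3587889) held 99.6, 109, 96.8 and 116 tags at control 24 h, cholesterol 24 h, control 48 h and cholesterol 48 h, with log2 ratios per kb of 0.15 (-0.11 to 0.41) and 0.06 (-0.24 to 0.37). Lmod1 was lower at 24 h (6.27 ± 0.218 to 4.65 ± 0.105 RPKM, SD, n = 3 each, limma adjusted p = 0.0130), a call lost without cholesterol 24 h replicate 2, control 24 h replicate 2 or control 24 h replicate 3. The Lmod1 region (chr1:135346096-135349850) with the AP-1 motif and CArG box held 310, 258, 269.6 and 198 tags in the same order. Per kb its log2 ratio was 0.40 (0.24 to 0.55) at 24 h, against the direction of the undivided tags, and -0.45 (-0.65 to -0.24) at 48 h. Acta2 did not pass, at 33.6 ± 1.42 against 28.3 ± 0.810 RPKM at 24 h (SD, n = 3 each, limma adjusted p = 0.483).

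The largest falls were in genes outside that list. Akap5 was at 17.8, 18.2 and 16.7 RPKM in control 24 h cells and 9.23, 9.49 and 9.44 with cholesterol, and at 15.1 and 15 against 5.05, 5.75 and 5.31 at 48 h. The control mean was 1.87-fold the cholesterol mean at 24 h and 2.80-fold at 48 h (log2 fold changes -0.84 ± 0.0553 and -1.33 ± 0.0618, limma, adjusted p = 2.74e-06 and 1.22e-07). Its 3 regions together held 681 tags at control 24 h and 589.9 at cholesterol 24 h, and 785 and 599 at 48 h, and the strongest (chr12:76316787-76321199) held 310.4, 316, 404 and 332. Per kb that region stood at log2 0.23 (0.09 to 0.38) and 0.26 (0.09 to 0.42) to control, and the median of the 3 regions relative to the common level was 0.12 at both times (-0.08 to 0.14 and -0.45 to 0.25). Gja4, the gene of connexin 37, was at 6.03, 6.65 and 6.16 RPKM in control 24 h cells and 2.81, 2.38 and 2.33 with cholesterol (log2 fold change -1.06 ± 0.0743, limma, adjusted p = 4.22e-06), and at 5.87 and 5.16 against 3.03, 2.80 and 2.51 at 48 h. Its region (chr4:127288012-127290814) held 113 and 75.9 tags at 24 h and 103 and 23.6 at 48 h. There the tags were lower in cholesterol at both times, although per kb the log2 ratio was -0.07 (-0.35 to 0.20) and -0.51 (-1.05 to -0.01).

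Of 26 extracellular matrix genes, 16 were nearest to 50 regions: 3 fell and none rose at 24 h, and 4 fell and none rose at 48 h. Over all genes tested, 2.96% fell at 24 h and 12.9% at 48 h. The 24 h calls of Col3a1 and Col8a1 were lost without any 1 of 5 of the 6 libraries compared, and the 48 h call of Timp3 without control 48 h replicate 3. Thbs2, the matrix protein thrombospondin 2, was at 5.32, 6.20 and 5.88 RPKM in control 24 h cells and 2.98, 2.78 and 2.86 with cholesterol, and at 6.56 and 6.19 against 1.92, 2.11 and 2.14 at 48 h (log2 fold changes -0.81 ± 0.0543 and -1.27 ± 0.0607, limma, adjusted p = 3.11e-06 and 1.22e-07). Its region (chr17:14640115-14641731) held 67.5 and 84.5 tags at 24 h and 93.6 and 67.1 at 48 h (log2 ratio per kb 0.45, 0.15 to 0.76, and -0.15, -0.51 to 0.20). Col3a1, fibrillar collagen III, fell at 48 h from 17.4 and 17.1 to 8.90, 7.43 and 8.57 RPKM (limma, adjusted p = 2.81e-05). Its strongest region (chr1:45241643-45246061) held 179.6 and 145 tags at 24 h and 245 and 113 at 48 h (log2 ratio per kb -0.26, -0.47 to -0.06, and -0.51, -0.76 to -0.26). Fibroblast markers, of which Cd34 alone averaged at least 1 RPKM and 4 of 8 were under 0.1, were lower as well: they summed to 3.32 to 3.70 RPKM at cholesterol 48 h against 6.08 to 6.31 at control 48 h, and to 4.13 to 4.16 against 4.35 to 4.81 at 24 h. Their part in these falls was not tested.

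Among genes of the factors whose motifs were counted, calls were as follows. The shares over all genes tested were 2.48% higher and 2.96% lower at 24 h, and 11.9% and 12.9% at 48 h. Of the 8 AP-1 genes nearest to 16 regions, 7 were tested, with 1 higher at 24 h, 4 higher at 48 h and none lower. The 1 at 24 h was Fosl2, whose call was lost without any 1 of the libraries compared, and those of Jun and Jund at 48 h were lost without control 48 h replicate 3. Of 8 TEAD and YAP genes with 25 regions, 8 of them at Tead1, none passed at either time. The SRF, myocardin and KLF list (8 genes, 26 regions, 7 at Klf4) gave none at 24 h and 2 higher and 1 lower at 48 h. Of the RUNX genes, 3 were tested, and 1 was lower at 48 h. TGF-beta signalling genes (14 genes, 39 regions) gave none at 24 h and 3 higher and 2 lower at 48 h. Without control 48 h replicate 2, the calls of Klf4, Klf9 and Mkl1 in the SRF and KLF list and of Tgfb2, Skil and Bmp1 among the TGF-beta genes were lost.

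Other genes with the largest changes were of mixed function. Dusp8, a dual-specificity phosphatase, rose from 3.96, 3.52 and 3.22 to 6.81, 7.27 and 6.68 RPKM at 24 h (limma, adjusted p = 5.83e-05). At 48 h, Aqp1, the water channel, fell from 23.6 and 21.1 to 9.53, 9.53 and 10.6 RPKM (limma, adjusted p = 1.25e-04). Lrrc75b fell from 17.5 and 15.6 to 6.97, 8.07 and 8.40 (limma, adjusted p = 6.41e-06). Mir704, a short RNA gene whose few reads may belong to a host transcript, was at 10.1 and 14.2 RPKM in control 48 h cells and 40.7, 42.5 and 33.8 with cholesterol (limma, adjusted p = 3.51e-04).

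Without cholesterol, these were the nearest genes named for their change from 0 to 24 h, a step that may include the change from serum medium. Ccl2, a monocyte chemokine, was listed at 0, 0.792 and 0.665 RPKM at 0 h and at 4, 5.65 and 4.70 at 24 h (limma, adjusted p = 1.96e-04). Cxcl1, a neutrophil chemokine, was listed at 0, 0 and 0.148 RPKM in the 0 h libraries and reached 1.48, 2.02 and 1.67 by 24 h (adjusted p = 4.63e-05 by limma). Susd2 rose from 3.29, 3.76 and 3.36 to 7.68, 7.54 and 8.37 RPKM (limma, adjusted p = 1.21e-05). Edn1, the vasoconstrictor endothelin 1, fell from 8.75, 9.66 and 9.46 to 4.72, 4.82 and 4.30 (limma, adjusted p = 5.80e-05), and Cyp26b1, a retinoic acid hydroxylase, from 24.9, 21.2 and 18.4 to 11.2, 10.4 and 9.57 (adjusted p = 1.60e-04). Mgp, an inhibitor of calcification, fell from 40.3, 28.8 and 22.5 to 15.5, 16.2 and 17.3 RPKM (limma, adjusted p = 0.00965). Its 0 h libraries spread widely, and the call was lost when only the control 0 and 24 h libraries were fitted.

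**Figure D5:**
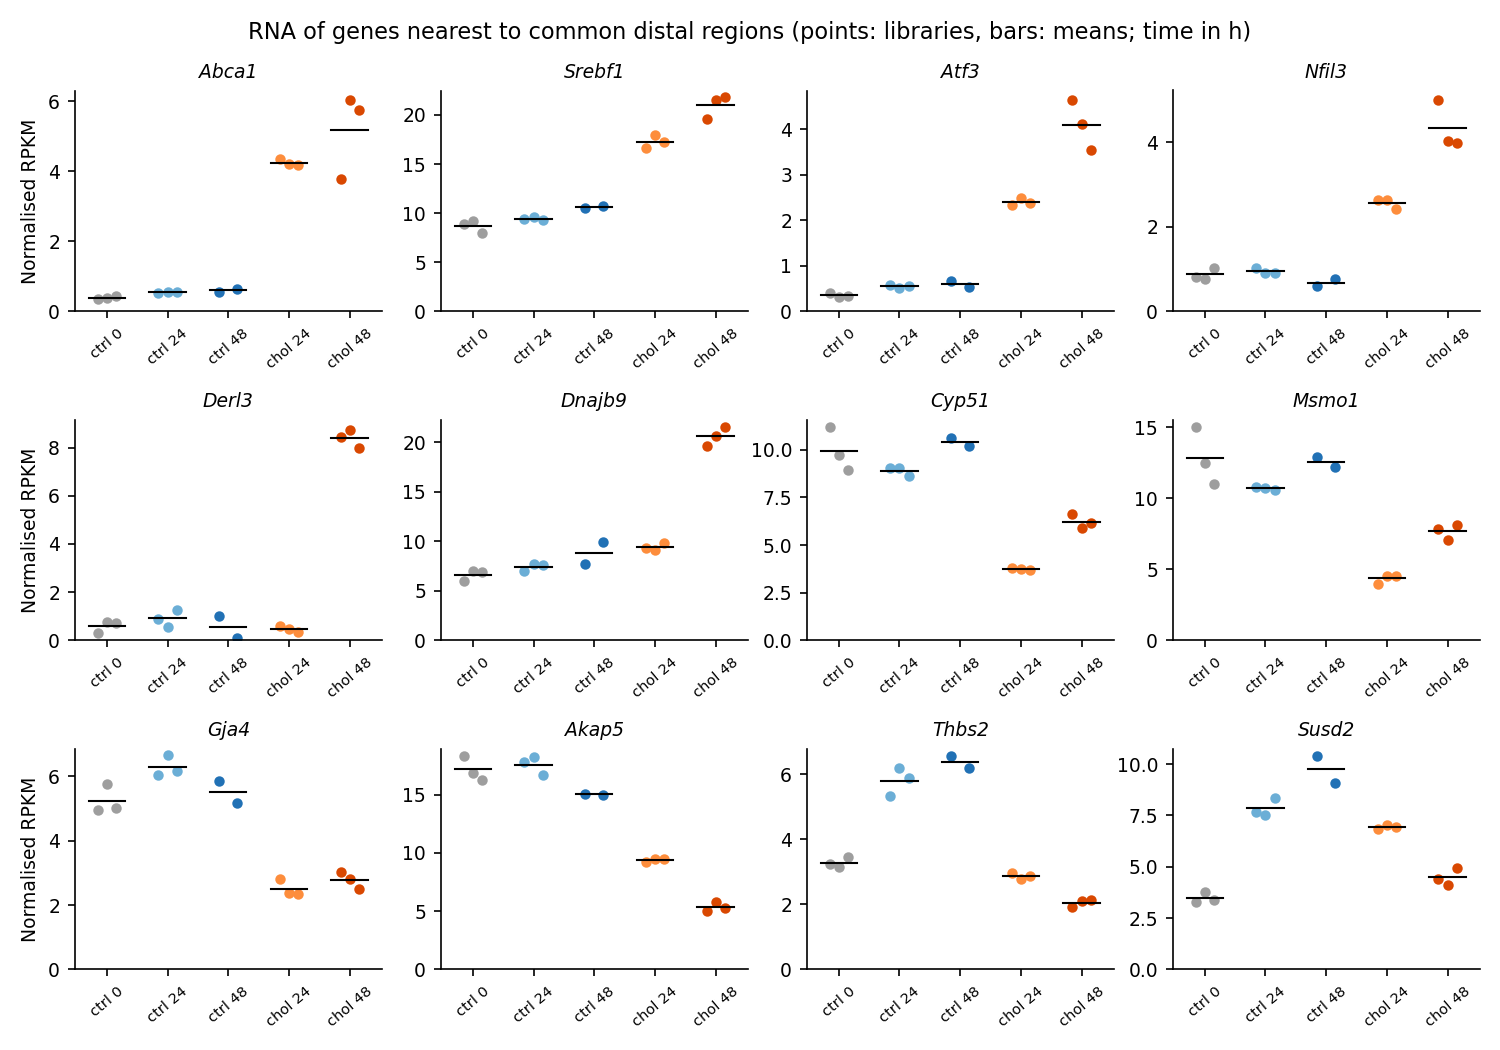
RNA in RPKM of 12 genes nearest to common distal regions (1 panel each), with each library as a point and the group mean as a line, for control 0, 24 and 48 h and cholesterol 24 and 48 h. Abca1 and Atf3 separate fully between cholesterol and control at both times, Derl3 only at 48 h, and Cyp51, Msmo1, Gja4, Akap5 and Thbs2 are lower with cholesterol at both times.

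The RNA of marker genes matched the label of the cells. In every RNA library 8 smooth muscle markers, of which 7 averaged at least 1 RPKM, summed to between 139 and 307 RPKM. The 8 endothelial markers summed to between 0.402 and 0.975. Smooth muscle sums were lower with cholesterol, at 139 to 146 against 168 to 179 in control at 24 h. At 48 h they were 163 to 189 against 213 to 216. Of 8 macrophage markers, Ptprc, Adgre1, Itgam and Mrc1 were at or near 0, and 3 (Cd68, Cd14 and Lyz2) averaged at least 1 RPKM. The macrophage sum was 8.61 to 9.30 at cholesterol 48 h against 6.44 to 6.63 at control 48 h, carried by Cd68 at 4.54 to 5.29 against 2.10 to 2.49. Of all 24453 named genes, 4708 were nearest to a common distal region. None of the 8 macrophage markers was, in a list too short to be set against that share. Of the 8 endothelial markers, 6 were nearest to 10 regions although their RNA was low. Nearness to a region is thus not read here as a sign of cell type. Fibroblast markers summed to between 3.32 and 6.31. In bulk RNA, fewer cells of a type and less RNA per cell cannot be told apart, and the part of these markers in the results was not tested.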

How the data were processed

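The common distal regions and the gene lists used here were chosen with earlier results of these data known. Per the labels and the study's methods, ChIP reads were aligned to mm10 with Bowtie2 and RNA reads with STAR; the sources used here give no versions. The authors called H3K27ac regions in each library with HOMER (at most 1 tag per position, 4-fold over the matched input, Poisson p 1e-04). Deposited region files give the tag signal per 10000000 mapped tags and the fold ratio over input. The deposited RNA table gives RPKM over RefSeq gene bodies including introns, in 14 columns, all mapped to samples. The authors tested RNA with DESeq2 on counts not used here.

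Each common distal region was paired with the overlapping region of another list, tags were divided by region length, and log2 ratios were given with 95% counting intervals, which cover counting error only. Values under 100 tags came out as whole reads (tolerance 0.25 tags). RPKM were rescaled between libraries, genes with an estimated 70 reads in at least 1 library were kept, and log2(RPKM + 1) was fitted in limma 3.58.1 (R 4.3.3) with 1 mean per group over all 14 libraries, intensity trend and Benjamini-Hochberg adjustment at 0.05. The fit was tested on simulated data. Build names were checked by symbol: 95.4% of table genes were in GRCm38.p6 and 93.2% of these had an end within 100 bp. Regions were handled in Python 3.11.15. Replicate numbers did not pair libraries. The study's methods report that control 0 h replicate 1 did not cluster with its group.

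Named regions were the 10 with the highest mean tags, the 5 largest rises and falls with cholesterol at both times, and those within 50 bp of a limit. Named genes were the 10 with the most regions, the 5 largest rises and falls among nearest genes called at 24 h and at 48 h with at least 1 RPKM, 3 and 3 for control 24 h against 0 h, and examples from the lists; a few genes that the rule names are not reported here. For genes with several regions, tag values were given for the one with most tags at control 24 h. The printed windows did not all follow this rule. Those of Smtn (43.9 tags) and Akap5 (276 tags) come from the region ranked 2 by these tags. Alternatives covered overlap, distance, scaling, pseudocount, filters, weights, replicate block and each library left out.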

Additional observations from a re-analysis of the deposited data

Results flagged for a closer look

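The response to cholesterol differed between 48 h and 24 h, by a test of the difference itself in limma (48 h effect minus 24 h effect, log2 scale, Benjamini-Hochberg over 12648 genes), for 11 genes named for their RNA. Among genes that were higher at 48 h, the difference was 3.01 for Derl3 (adjusted p = 2.88e-04), 0.80 for Nfil3 (adjusted p = 0.00249) and 0.53 for Atf3 (adjusted p = 0.00966). At 24 h Derl3 did not pass, with a log2 fold change of -0.36. Mir704 differed by 1.84 (adjusted p = 0.00502) and Cxcl1 by 0.69 (adjusted p = 0.0415), and at 24 h neither passed, with log2 fold changes of -0.23 and 0.07. Among genes that were lower at 48 h, the difference was -0.81 for Susd2 (adjusted p = 0.00116), -0.70 for Lrrc75b (adjusted p = 0.00389) and -0.70 for Aqp1 (adjusted p = 0.0479). It was -0.49 for Akap5 (adjusted p = 0.00520) and -0.46 for Thbs2 (adjusted p = 0.00683). Cyp51 was the one with a smaller fall at 48 h, by a difference of 0.40 (adjusted p = 0.0353).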

How the results depend on the processing

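Depth and 1 ChIP library per condition limit the tag ratios, and the control 0 h library kept the fewest tags. Region choice depended on the overlap: 1256 regions were left when an overlap of 50% of both regions was asked, 244 at 8-fold over input and 13794 without the control 0 h list (added after seeing the data). Values below give the medians and then the counts of regions 2-fold or more higher and lower. At 24 h of cholesterol they were 0.13, 552 and 286 without division by length, -0.02 and 40 lower relative to the common median, and -0.41, 25 and 285 scaled to kept tags (added after seeing the data). With regions overlapping by 80% of both, 4 and 2 of 2814 remained, at 1.5-fold 512 and 176, and at 4-fold 6 and 0. At 48 h they were -0.11, 439 and 748 without division, -0.02, 3 and 0 at 80% overlap, 430 and 411 at 1.5-fold and 1 and 1 at 4-fold, and the median was -0.01 with input subtracted and 0.09 with kept tags. For control 24 h to 0 h they were 1.62, 5864 and 136 without division, 0.47, 47 and 8 at 80% overlap, -0.23, 228 and 976 relative to the common median, 0.16 and 423 lower with input subtracted, and -1.13, 6 and 4732 with kept tags, with 2595 and 775 at 1.5-fold and 25 and 4 at 4-fold. The cause of these moves was not tested, beyond the fewer regions and the scaling that the settings impose.

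For RNA of the nearest genes, counts are higher and then lower. At 24 h, 60 were higher with a mean RPKM of at least 1, 397 and 612 were called with array weights and 272 and 436 with only the groups compared. At 48 h, 365 were lower with a mean RPKM of at least 1, and 167 and 240 were called with only the groups compared. For control 24 h against 0 h the counts were 89 and 113 with a mean RPKM of at least 1, 80 and 58 with array weights, and 88 lower with only the groups compared. Leaving out 1 library gave 41 to 149 and 75 to 221 at 24 h, 273 to 529 and 353 to 651 at 48 h, and 107 to 276 and 74 to 468 in control medium. Replicate numbers did not pair the libraries (same-number correlations of deviations -0.05, -0.03 and 0.04 at 24 h, and -0.14 and 0.07 at 48 h), and a fit with the replicate block gave 81 and 135, 381 and 484, and 170 and 136. Creb3l2 at 48 h turned from -0.02 to 0.18 without cholesterol 48 h replicate 1 (-0.15 to 0.18 over the libraries left out). Of 8259 comparisons of named genes, 7795 kept direction and side of the threshold, 304 lost the call and 159 gained it.

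Motif shares in the central 100 and 400 bp were 11.4% and 24.7% for AP-1, 11.6% and 30.4% for TEAD, 5.01% and 13.4% for KLF, 7.27% and 26.1% for RUNX, 0.441% and 1.51% for ATF4-C/EBP and 1.18% and 3.10% for the CArG box, as window length sets them.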
